A study of Mus musculus with 24 samples.

Results

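The genes described here are 9 transcription factors known for setting up and keeping regional identity in the gut epithelium: *Gata4*, *Gata5*, *Gata6*, *Pdx1*, *Onecut2*, *Cdx1*, *Cdx2*, *Hnf4a* and *Hnf4g*. They were chosen by name, as 9 of the 53465 genes counted, and each passed the filter on low counts. Epithelial cells of *Guca2a*-Venus mice were sorted as Venus-positive or Venus-negative from duodenum, jejunum, ileum and colon, and their RNA was sequenced, with 3 libraries in each of the 8 groups and 24 libraries in all. The design text gives 3 different mice, but the labels do not say which libraries came from the same mouse. Replicate numbers used below follow the order in which the samples of a group are listed and do not stand for a mouse.

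All 8 groups carried the same transgene, a bacterial artificial chromosome in which the Venus fluorescent protein replaced the coding sequence of *Guca2a*, the gene for the hormone guanylin. The line descended from a single founder and was backcrossed to C57Bl6J. Venus therefore marked cells in which the transgene was read, and several epithelial cell types were pooled in each sort. Dead cells, debris and CD45+ immune cells were gated out. Small intestinal samples were 3 cm stretches from the upper end, the centre and the lower end, and the colon was taken with the rectum. Age and sex of the mice were not given in the sources used here.

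As background, GATA4, GATA5 and GATA6 are zinc finger factors, of which GATA4 is known for holding the proximal small intestine distinct from the ileum. PDX1, a homeodomain factor best known from the pancreas, is used in the duodenum, and ONECUT2 belongs to the cut-homeodomain family. CDX1 and CDX2 are caudal-type homeodomain factors that give endoderm an intestinal rather than gastric identity. HNF4A and HNF4G are nuclear receptors that drive the absorptive programme of the enterocyte, including lipid handling and the brush border.

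Each library held between 7458616 and 23063124 reads assigned to genes, and levels are given as CPM (counts of a gene over the library total, after TMM scaling of that total). On that scale 3 counts, the floor used here for detection, corresponded to 0.106 to 0.360 CPM. Mitochondrial genes held 32.3% to 80.7% of the gene counts, with a mean of 38.6% in positive cells of the duodenum against 71.2% in negative cells there. Among positive cells 13 of 14 colon markers were highest in the colon and 7 of 10 ileum markers in the ileum, but of 10 markers of the proximal small intestine 1 was highest in the duodenum and 6 in the jejunum. In negative cells 6 of these 10 were highest in the duodenum and 4 in the jejunum. Sorted fractions also differed in cell types. Summed goblet cell markers were at 53013 to 60457 CPM in positive and 310.0 to 433.7 CPM in negative duodenal cells, and summed enterocyte markers at 25981 to 30836 CPM in positive and 2552 to 3417 CPM in negative jejunal cells. In these bulk libraries more cells of a type and more RNA per cell cannot be told apart, and the part of cell composition in the results below was not tested.

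**Figure D1:**
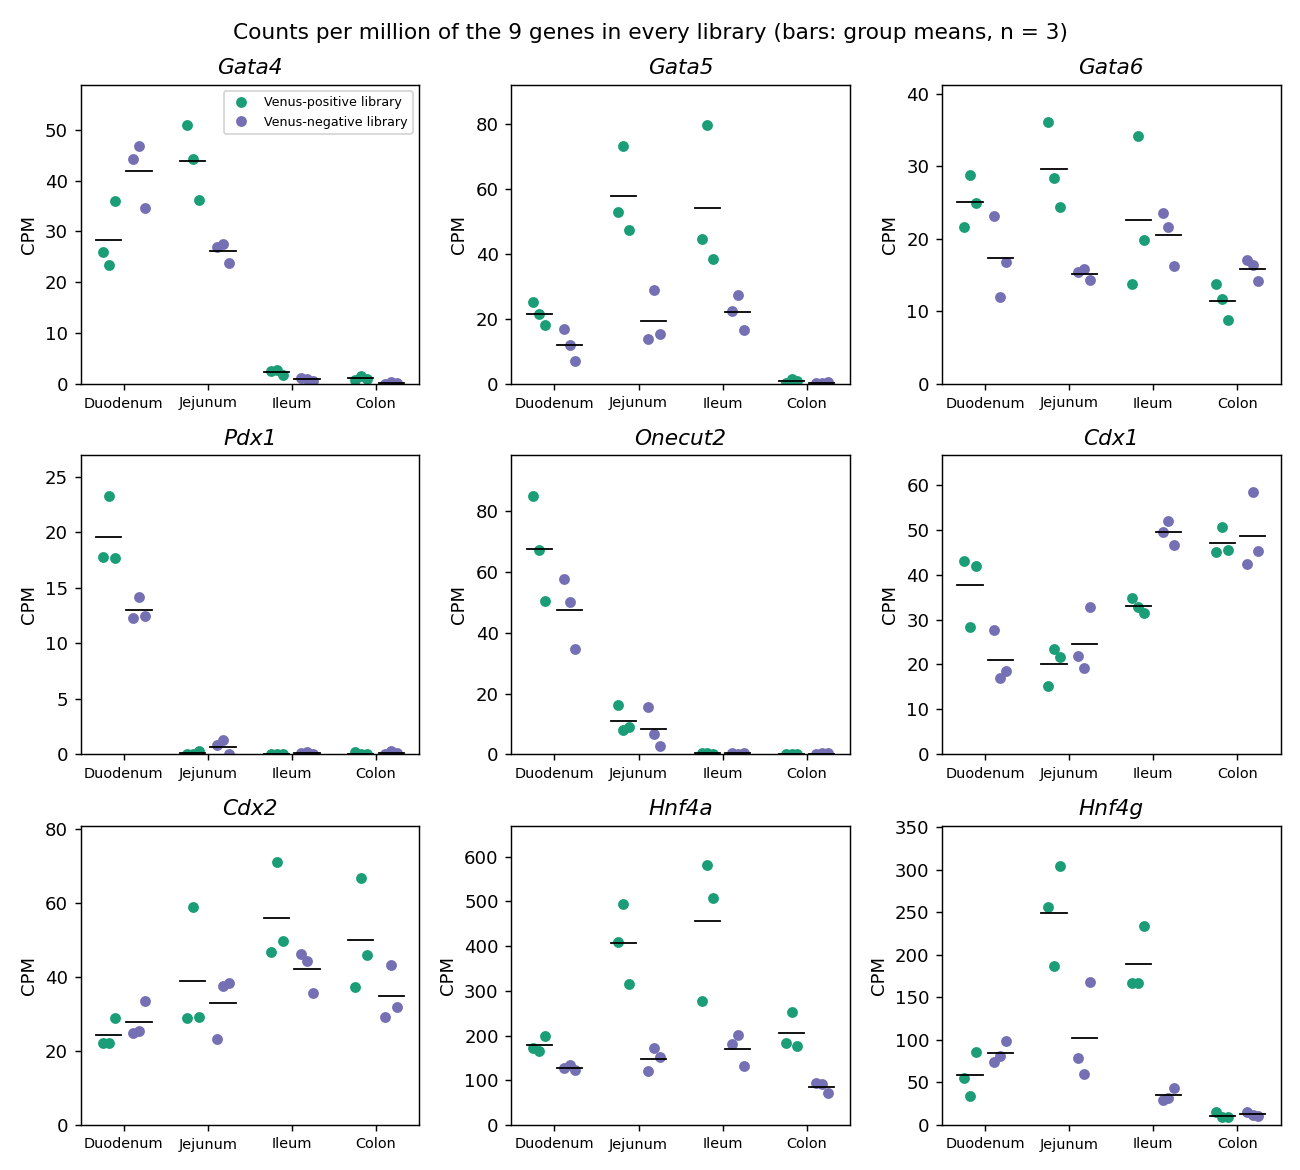
CPM of each gene (vertical axis, linear, from 0) in every library, by region (horizontal axis) and sort (green, Venus-positive; purple, Venus-negative), with black bars at the means of 3 libraries. *Pdx1* and *Onecut2* were high in the duodenum, *Gata4* in the duodenum and jejunum and *Gata5* along the small intestine, while *Cdx1*, *Cdx2*, *Gata6* and *Hnf4a* were present in every group.

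To ask how the factors were distributed along the gut, the 4 regions were compared jointly within each sort. In positive cells all 9 genes differed between regions at an adjusted p under 0.05 in edgeR's quasi-likelihood test, where 43.3% of the 15044 genes tested did. In negative cells 6 of the 9 did, beside 12.3% of all genes. *Gata6* (adjusted p = 0.73), *Cdx2* (0.57) and *Hnf4a* (0.083) did not pass there. With library size alone for scaling, these 3 passed as well (adjusted p from 0.0040 to 0.045). The lowest group mean stood at 0 to 0.58% of the highest for *Pdx1*, *Onecut2*, *Gata4* and *Gata5*, at 4.4% for *Hnf4g*, 18.8% for *Hnf4a*, 38.6% for *Gata6*, 40.7% for *Cdx1* and 43.6% for *Cdx2*.

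**Figure D2:**
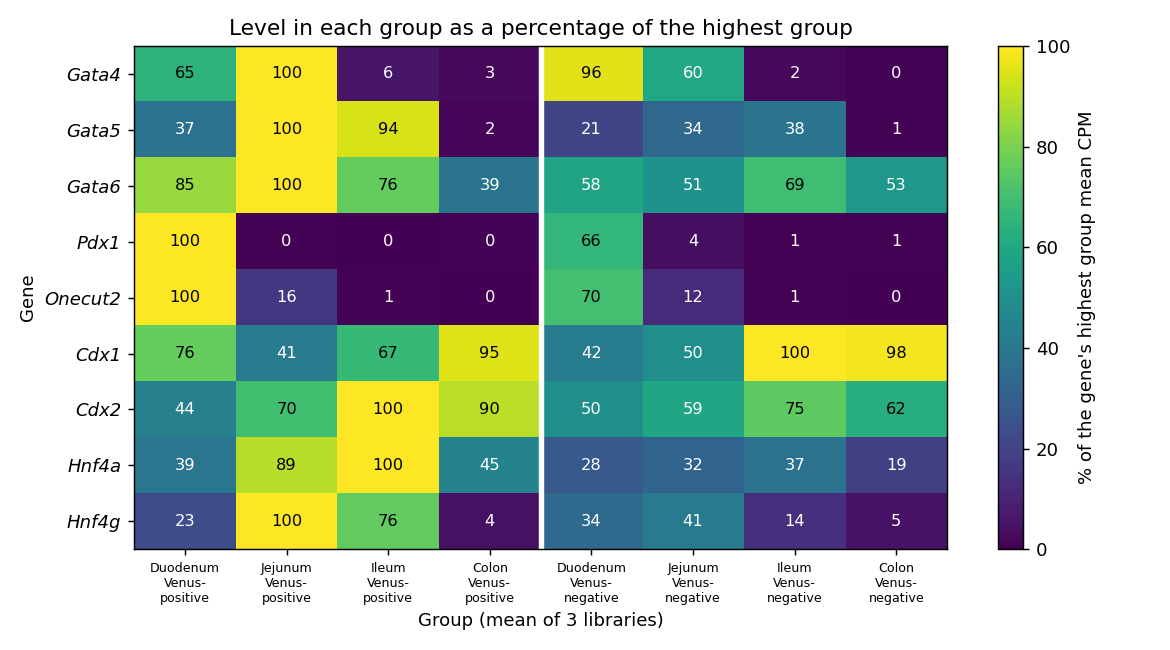
Mean CPM of each gene (rows) in each of the 8 groups (columns) as a percentage of the gene's highest group. The lowest group was at 43.6% for *Cdx2* and 40.7% for *Cdx1*, against 0.17% for *Onecut2*. In the colon 5 of the 9 genes stood at 4.91% or less in both sorts.

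*Pdx1* (ENSMUSG00000029644; chr5:147269959-147275848, plus strand, GRCm38) was detected as a duodenal gene in both sorts. Positive duodenal libraries held 17.8, 23.3 and 17.7 CPM and negative ones 12.3, 14.2 and 12.5 CPM, so that the sorts did not overlap, but their difference did not pass the test (log2 fold change 0.59 ± 0.68 SE, adjusted p = 0.59). Outside the duodenum *Pdx1* was at or near 0: positive jejunal libraries had 0, 0 and 4 counts, ileal libraries 0 in all, and colonic libraries 3, 0 and 0. The mean of positive duodenal cells was at least 88.8-fold higher than in the ileum, taking 3 counts per library as the floor. In negative cells the duodenum exceeded the jejunum by a log2 fold change of 4.20 ± 0.81 (adjusted p = 0.005), which DESeq2 did not call (adjusted p = 0.12) and which was 5.01 without negative jejunal replicate 2 and 3.60 without replicate 3. A jejunal difference between sorts was called in the opposite direction, at -2.89 ± 1.07 (adjusted p = 0.03), but it rested on 11, 20 and 0 counts in the negative libraries, so that the sorts overlapped. That call was lost in DESeq2 (adjusted p = 0.12), with library size alone (adjusted p = 0.053) and when any one of 4 jejunal libraries was left out (positive replicates 1 and 2 and negative replicates 1 and 2; adjusted p from 0.077 to 0.18). Without positive replicate 3, which held the 4 counts, the value was -6.42, and without negative replicate 3 it was -3.49. An antisense gene, *Plut*, overlaps the locus and had 0 to 93 counts per library.

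*Onecut2* (ENSMUSG00000045991; chr18:64340020-64400987, plus strand) fell in steps from the duodenum to the ileum. It stood at 85.2, 67.4 and 50.5 CPM in positive and 57.7, 50.1 and 34.5 CPM in negative duodenal cells. Jejunal libraries were lower throughout, at 16.2, 7.98 and 8.90 CPM in positive and 15.5, 6.76 and 2.72 CPM in negative cells. No ileal or colonic library exceeded 0.554 CPM. The duodenum exceeded the jejunum by 2.62 ± 0.47 in positive cells (adjusted p = 7.2e-05) and 2.52 ± 0.47 in negative cells (adjusted p = 0.0025), and the jejunum exceeded the ileum by 4.89 ± 0.59 and 4.42 ± 0.57. Without negative jejunal replicate 1, the highest of its group, the differences in negative cells were 3.39 and 3.56. The ileum and colon did not differ beyond their spread, both being close to the floor of counts. *Onecut2* was called between sorts in none of the regions, with log2 fold changes of 0.51 ± 0.44 in the duodenum and 0.41 ± 0.45 in the jejunum. The jejunal value was 1.29 and passed (adjusted p = 0.034) without negative jejunal replicate 1, but was -0.0092 and did not pass without negative jejunal replicate 3. Its paralog *Onecut1* had at most 1 count in any library and *Onecut3* at most 29.

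*Gata4* (ENSMUSG00000021944; chr14:63198922-63271692, minus strand) fell steeply between jejunum and ileum in both sorts. Positive cells held 25.9, 23.3 and 35.9 CPM in the duodenum and 50.9, 44.2 and 36.2 CPM in the jejunum. The ileum followed at 2.58, 2.82 and 1.84 CPM and the colon at 0.850, 1.63 and 1.03 CPM. Every positive jejunal library thus lay far above every ileal one, by a log2 fold change of 4.17 ± 0.36 (adjusted p = 3.6e-09). In negative cells the jejunum, at 26.9, 27.6 and 23.8 CPM, exceeded the ileum, at 1.20, 0.952 and 0.554 CPM, by 4.82 ± 0.38 (adjusted p = 1e-09). Between jejunum and ileum 2 of the 9 genes were called in positive cells (*Gata4* and *Onecut2*), beside 5.15% of all genes, and 4 in negative cells (these with *Hnf4g* and *Cdx1*), beside 2.11%. Duodenum and jejunum did not differ in positive cells at the threshold (-0.63 ± 0.31, adjusted p = 0.13), although their libraries did not overlap.

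The direction of *Gata4* between sorts changed along the gut. In the duodenum the negative libraries held 44.3, 46.8 and 34.6 CPM, and positive cells were at a log2 fold change of -0.56 ± 0.31 against them, with overlap and no call (adjusted p = 0.22). In the jejunum positive cells were higher in every library, at 0.75 ± 0.31 (adjusted p = 0.054). That value missed the threshold, and 6 alternatives listed in the closing section passed it. In the ileum positive cells exceeded negative cells by 1.40 ± 0.37 (adjusted p = 0.0033). In the colon, positive libraries had 11, 23 and 16 counts against 0, 6 and 1 in negative libraries (2.49 ± 0.55, adjusted p = 0.0024), and the value was 4.30 without negative replicate 2, which held 6 of these counts. Fitted on the compared libraries alone, these calls did not pass (adjusted p = 0.068 for ileum and 0.17 for colon). The change of the sort difference along the gut was itself tested: the 4 regions differed jointly (adjusted p = 0.0023), as 17.5% of all genes did, with *Cdx1* (adjusted p = 0.028) and *Hnf4g* the others called among the 9. *Gata6* missed the threshold (adjusted p = 0.073). It passed with DESeq2, RLE factors, library size alone, a minimum of 10 counts per library, or protein-coding nuclear genes only. It also passed without positive ileal replicate 2 (adjusted p from 0.020 to 0.041 in all of these). *Pdx1* (adjusted p = 0.11) passed without the filter on low counts (0.0047) and without positive or negative jejunal replicate 3 (0.020 and 0.027). For *Cdx1* this joint call was lost without the filter on low counts and without any of 7 libraries (adjusted p from 0.053 to 0.11): positive duodenal replicates 1 and 3, negative duodenal replicates 2 and 3, positive ileal replicates 2 and 3 and negative ileal replicate 2.

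*Gata5* (ENSMUSG00000015627; chr2:180325133-180334699, minus strand) was a gene of the whole small intestine, and in positive cells its highest levels lay past the duodenum. Positive cells had 25.2, 21.4 and 18.1 CPM in the duodenum. They had 52.9, 73.2 and 47.3 CPM in jejunum and 44.7, 79.7 and 38.4 CPM in ileum, with 4, 20 and 16 counts in the colon. The duodenum was below the jejunum by a log2 fold change of -1.42 ± 0.37 (adjusted p = 0.004), whereas jejunum and ileum differed by 0.09 ± 0.36 (adjusted p = 0.96). Negative duodenal libraries, at 17.0, 12.1 and 7.07 CPM, overlapped those of jejunum and ileum. Neither difference passed there (-0.69 ± 0.37, adjusted p = 0.91, and -0.88 ± 0.37, adjusted p = 0.21). Ileum exceeded colon by 5.86 ± 0.48 in positive and 5.94 ± 0.53 in negative cells (6.59 without negative colonic replicate 3). Unlike *Gata4*, therefore, *Gata5* had its step at the border to the colon.

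Positive cells carried more *Gata5* than negative cells in the jejunum and ileum. Negative libraries held 13.9, 29.0 and 15.5 CPM in the jejunum and 22.6, 27.4 and 16.5 CPM in the ileum, below all positive libraries of the same region. The log2 fold changes were 1.57 ± 0.37 (adjusted p = 0.0011) and 1.29 ± 0.37 (adjusted p = 0.0065). Without positive ileal replicate 2 the ileal difference was 0.90 and no longer passed (adjusted p = 0.082). In the duodenum the difference was 0.84 ± 0.38 without overlap (adjusted p = 0.12), and it passed with library size alone (1.30, adjusted p = 0.018) and with the compared libraries alone (0.90, adjusted p = 0.041). An antisense gene, *Gata5os*, shares 5.05% of the 50-base words of *Gata5* and had 0 to 24 counts per library, so that the colonic counts of *Gata5* in particular cannot be assigned with certainty.

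*Gata6* (ENSMUSG00000005836; chr18:11052064-11085635, plus strand) was the most even of the GATA genes, with every library between 8.84 and 36.1 CPM. In positive cells the colon, at 13.8, 11.8 and 8.84 CPM, was below the jejunum, at 36.1, 28.4 and 24.4 CPM. The jejunum exceeded the colon by a log2 fold change of 1.37 ± 0.30 (adjusted p = 0.00073), the duodenum did so by 1.13 ± 0.30 (adjusted p = 0.010) and the ileum by 0.98 ± 0.30 (adjusted p = 0.019). The duodenal difference did not pass without positive duodenal replicate 2 or positive colonic replicate 3 (adjusted p = 0.059 and 0.076), nor the ileal one without positive ileal replicate 2 or positive colonic replicate 2 or 3 (adjusted p from 0.057 to 0.26). Between sorts only the jejunum was called: negative libraries held 15.4, 15.8 and 14.3 CPM, and positive cells were higher by 0.97 ± 0.30 (adjusted p = 0.0097; 0.062 without positive jejunal replicate 1). The colon had the opposite order, with all negative libraries above all positive ones, but the difference did not pass (-0.47 ± 0.30, adjusted p = 0.34). Jejunal and colonic sort differences differed from each other by 1.44 ± 0.43 (adjusted p = 0.03).

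Levels per kilobase of exon allow a rough comparison between genes. The length used joins all annotated exons of a gene, and the transcripts present in these cells were not determined. On this scale the order within the GATA family changed from region to region. In positive jejunal cells *Gata5* stood at 17.6 ± 4.2, *Gata4* at 11.2 ± 1.9 and *Gata6* at 4.56 ± 0.91 CPM per kb (mean ± SD, n = 3). In the positive colon *Gata6*, at 1.76 ± 0.38, was above *Gata4*, at 0.300 ± 0.104, and *Gata5*, at 0.281 ± 0.172. Within each library the log2 ratio of *Gata4* to *Gata6* per kilobase had a mean of 1.30 in positive jejunal and -2.40 in positive ileal cells. By sort the ratio went in opposite directions: positive cells lay below negative cells in duodenum and jejunum (-1.15 and -0.21) and above them in ileum and colon (1.39 and 3.41), without overlap in any region. The colonic value rests on the few *Gata4* counts of negative cells given above, and the 0.5 counts added set the ratio of the library with 0, so that its size is not a measured fold. Adding 2 or 0.1 counts instead moved the mean over regions, given next, to 0.60 or 1.09. Over the 4 regions the difference between sorts was 0.86 (exact permutation test within regions, two-sided, p = 0.087) and 0.0074 with the colon left out, and within 1 region 3 libraries against 3 cannot give a p below 0.1.

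**Figure D3:**
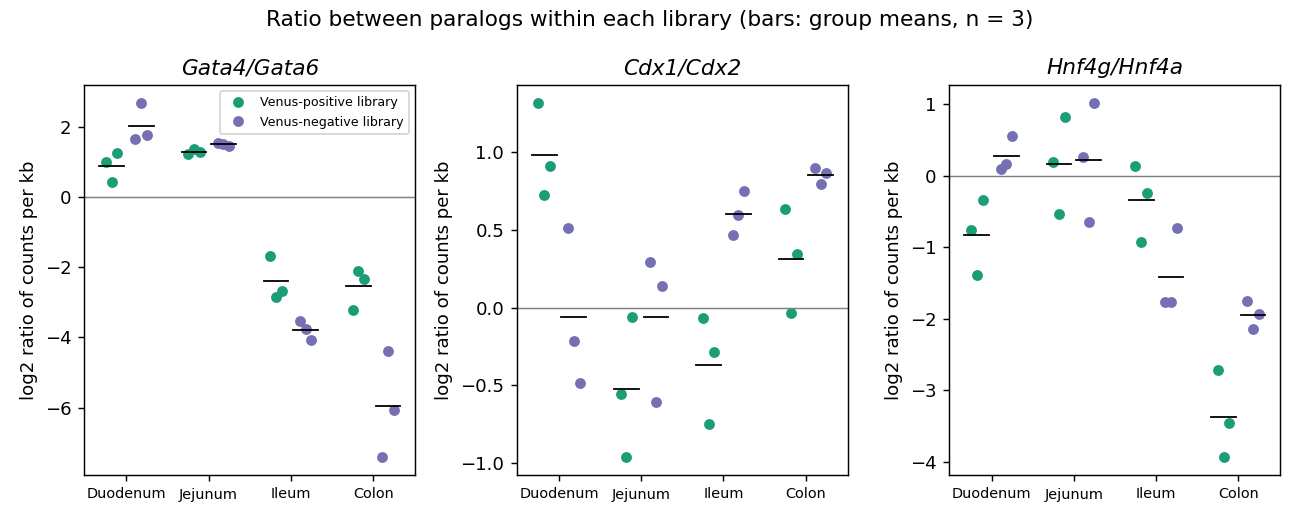
The log2 ratio of counts per kilobase (vertical axis) between 2 paralogs within each library, by region and sort (green, Venus-positive; purple, Venus-negative; black bars, means of 3 libraries; 0.5 counts added). *Gata4* exceeded *Gata6* in every duodenal and jejunal library and was below it in every ileal and colonic one; the grey line marks equal levels.

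*Cdx1* (ENSMUSG00000024619; chr18:61018862-61036199, minus strand) rose towards the distal gut in negative cells. Their duodenal libraries held 27.6, 16.9 and 18.5 CPM and jejunal ones 21.9, 19.1 and 32.8 CPM. Ileal libraries, at 49.5, 52.0 and 46.6 CPM, and colonic ones, at 42.3, 58.3 and 45.2 CPM, lay above all of these. The duodenum was below the ileum by a log2 fold change of -1.23 ± 0.26 (adjusted p = 0.0033) and below the colon by -1.21 ± 0.26 (adjusted p = 0.0018), while ileum and colon did not differ beyond their spread. Jejunum was below ileum by -1.003 ± 0.262 (adjusted p = 0.035), a call lost without the filter on low counts, with the compared libraries alone, or without negative jejunal or ileal replicate 1 or 2 (adjusted p from 0.072 to 0.21). Positive cells had another order, lowest in the jejunum at 15.2, 23.5 and 21.7 CPM and highest in the colon at 45.0, 50.5 and 45.4 CPM (-1.22 ± 0.26, adjusted p = 0.00058).

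In the duodenum *Cdx1* was the only gene of the 9 called between sorts, where 17% of all genes were (8.88% higher in positive cells). Positive libraries, at 43.0, 28.2 and 42.0 CPM, lay above the negative ones, by 0.85 ± 0.26 (adjusted p = 0.025). Leaving out positive replicate 1 or 3, or negative replicate 2 or 3, took the adjusted p to between 0.084 and 0.14, and without the filter on low counts it was 0.056. In the ileum the order was reversed, with positive libraries at 34.7, 32.7 and 31.6 CPM all below the negative ones, but the difference of -0.58 ± 0.26 did not pass (adjusted p = 0.077), except with at least 10 counts required in every library (-0.77, adjusted p = 0.012). The difference between these 2 sort effects did pass, at 1.43 ± 0.37 (adjusted p = 0.011).

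*Cdx2* (ENSMUSG00000029646, chr5:147300805-147307270, minus strand) lies 24956 bases from *Pdx1* on the same chromosome and had the opposite gradient in positive cells. Positive duodenal libraries held 22.2, 22.1 and 28.8 CPM, against 46.9, 71.1 and 49.7 CPM in the ileum and 37.4, 66.8 and 46.1 CPM in the colon. Duodenum was below ileum by -1.20 ± 0.30 (adjusted p = 0.0039) and below colon by -1.04 ± 0.30 (adjusted p = 0.018). The latter did not pass when library size alone was used for scaling, or without positive duodenal replicate 1 or 2 or positive colonic replicate 2 (adjusted p from 0.075 to 0.24). Between sorts *Cdx2* passed in no region, with log2 fold changes of -0.20 ± 0.30, 0.24 ± 0.30, 0.41 ± 0.30 and 0.52 ± 0.30 from duodenum to colon. In negative cells every library lay between 23.1 and 46.3 CPM, and the joint test of regions did not pass (adjusted p = 0.57, but 0.024 with library size alone). Its paralog *Cdx4* had at most 4 counts in any library.

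The balance of the 2 CDX genes differed in direction between regions. Positive duodenal cells had a log2 ratio of *Cdx1* to *Cdx2* per kilobase of 0.99 ± 0.31 (SD, n = 3) against -0.06 ± 0.52 in negative cells, whereas in the ileum positive cells were at -0.37 ± 0.35 and negative cells at 0.61 ± 0.14. The sorts did not overlap in either region, nor in the colon, where positive cells were lower by -0.54. Averaged over the 4 regions the difference was -0.23 (exact permutation test, two-sided, p = 0.30), a mean in which opposite directions cancel. The change of direction between regions was not tested, and within 1 region this test cannot give a p below 0.1.

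*Hnf4a* (ENSMUSG00000017950; chr2:163506808-163572910, plus strand) was expressed in every group, with no library below 72.2 CPM. From duodenum to colon, positive libraries held 172, 165 and 198 CPM, then 410, 495 and 316 CPM, then 277, 583 and 508 CPM, and lastly 184, 253 and 177 CPM. Negative libraries held 127, 133 and 123 CPM, then 120, 171 and 151 CPM, then 181, 200 and 131 CPM, and lastly 93.7, 91.6 and 72.2 CPM. All positive libraries exceeded all negative libraries of their region. The log2 fold change was 1.46 ± 0.29 for jejunum (adjusted p = 0.00014), 1.42 ± 0.29 for ileum (adjusted p = 0.00024) and 1.25 ± 0.29 for colon (adjusted p = 0.0034). In the duodenum it was 0.48 ± 0.28 (adjusted p = 0.25; with library size alone 0.94 and 0.042), although a joint test did not show that the sort difference of *Hnf4a* changed along the gut (adjusted p = 0.21). Within positive cells, jejunum and ileum were each above duodenum, which was at -1.19 ± 0.29 and -1.35 ± 0.29 against them, and above colon, by 0.99 ± 0.28 (adjusted p = 0.0075, but 0.057 without positive jejunal replicate 2) and 1.16 ± 0.29. Jejunum and ileum differed by -0.16 ± 0.28 (adjusted p = 0.86).

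*Hnf4g* (ENSMUSG00000017688; chr3:3508030-3658052, plus strand) was concentrated in positive cells of the jejunum and ileum. They held 256, 186 and 305 CPM in jejunum and 166, 167 and 234 CPM in ileum, against 55.4, 34.4 and 85.6 CPM in the duodenum and 15.1, 8.99 and 8.78 CPM in the colon. Jejunum exceeded duodenum, which was at -2.09 ± 0.36 against it (adjusted p = 4e-05), and exceeded colon by 4.51 ± 0.40 (adjusted p = 3.8e-10). Jejunum and ileum differed by 0.40 ± 0.34, within their spread (adjusted p = 0.64). Negative cells had another profile, with 74.4, 81.1 and 98.7 CPM in the duodenum and 78.9, 59.6 and 168 CPM in the jejunum but 29.1, 32.0 and 43.2 CPM in the ileum. There the jejunum exceeded the ileum by 1.56 ± 0.35 (adjusted p = 0.0094). That call did not hold with library size alone, with the compared libraries alone, or without negative ileal replicate 1 or 2 or negative jejunal replicate 3 (adjusted p from 0.057 to 0.21).

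Between sorts *Hnf4g* had the largest of the 4 differences called in the ileum, 2.44 ± 0.36 (adjusted p = 4.6e-06), and it was also higher in positive cells of the jejunum (1.29 ± 0.35, adjusted p = 0.0034). In the duodenum it went the other way without passing (-0.54 ± 0.34, adjusted p = 0.30), and in the colon the negative libraries, at 15.1, 11.3 and 10.3 CPM, overlapped the positive ones (-0.15 ± 0.36, adjusted p = 0.84). The joint test of these 4 differences gave an adjusted p of 0.00026.

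Per kilobase the 2 HNF4 genes were at similar levels in the positive jejunum, 84.3 ± 18.5 for *Hnf4a* and 94.7 ± 22.6 CPM per kb for *Hnf4g*. In the positive colon *Hnf4a* stood at 42.4 ± 8.7 and *Hnf4g* at 4.17 ± 1.38 CPM per kb. Positive duodenal and colonic libraries had a lower ratio of *Hnf4g* to *Hnf4a* than all negative libraries of the same region, by -1.10 and -1.43 on the log2 scale, while in the ileum the difference was 1.08 with overlap. Over the 4 regions it was -0.38 (exact permutation test, two-sided, p = 0.23), and -0.026 with the colon left out.

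**Figure D4:**
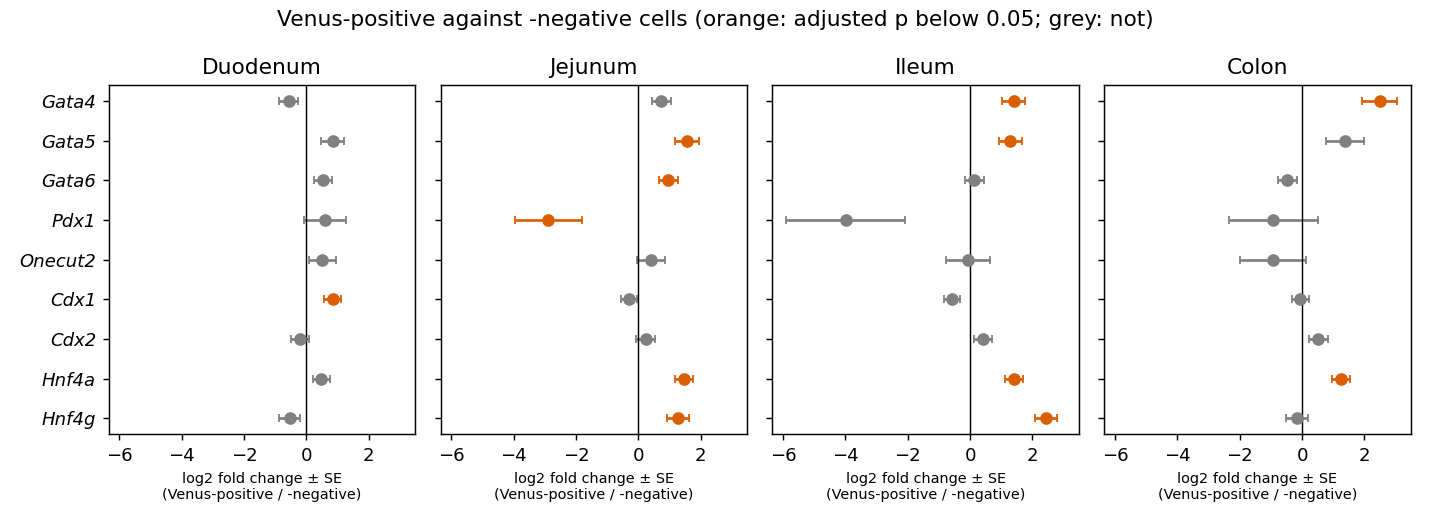
Log2 fold change of Venus-positive against Venus-negative cells (horizontal axis, 1 scale in all panels, bars ± SE from edgeR) for each gene in each region; orange points had an adjusted p under 0.05. *Hnf4a* passed in jejunum, ileum and colon, and *Pdx1* was the only gene called lower in positive cells, on few counts.

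Summed over the sort comparisons, 1, 5, 4 and 2 of the 9 genes were called from duodenum to colon, beside 17%, 43.9%, 38.5% and 13.1% of all genes tested. In the jejunum 4 were higher in positive cells (*Gata5*, *Gata6*, *Hnf4a* and *Hnf4g*) and 1 lower (*Pdx1*), where 18.3% and 25.6% of all genes were called in these directions. The 4 called in the ileum and the 2 in the colon were all higher in positive cells, as 17.9% and 9.31% of all genes were. The median log2 fold change of the 9 genes was 0.51, 0.75, 0.41 and -0.05, beside -0.16, -0.28, -0.27 and 0 over all genes. Taken pair by pair, the sort difference differed between duodenum and jejunum for 3 of the 9 genes (14.6% of all genes), between duodenum and ileum for 3 (10.5%), between duodenum and colon for 1 (3.62%), between jejunum and colon for 1 (9.69%), between ileum and colon for 1 (2.79%) and between jejunum and ileum for none (0.266%). Of 7 cycling and stem cell markers, 2, 7, 7 and 3 were called from duodenum to colon, all lower in positive cells. Their summed levels in the jejunum were 35.2 to 300.3 CPM in positive and 1519 to 2479 CPM in negative libraries. In the duodenum they were 487.3 to 991.4 CPM in positive and 1689 to 2333 CPM in negative libraries.

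Between regions the share called was set beside that of all genes for each pair. In positive cells 6 of 9 genes differed between duodenum and jejunum (33.2% of all genes), 7 between duodenum and ileum (25.5%), 7 between duodenum and colon (12.4%), 7 between jejunum and colon (33.9%) and 5 between ileum and colon (21.7%). In negative cells, the numbers were 2 between duodenum and jejunum (0.725%), 5 between duodenum and ileum (4.4%), 6 between duodenum and colon (11.2%), 5 between jejunum and colon (10.5%) and 4 between ileum and colon (5.24%). *Pdx1* and *Onecut2* were the 2 called between negative duodenum and jejunum.

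Some counts between regions fell when libraries were left out. Between negative jejunum and ileum 4 fell to 2, with *Cdx1* and *Hnf4g* lost. This happened without negative ileal replicate 1 or 2 and with the compared libraries alone (adjusted p from 0.057 to 0.13). The counts between ileum and colon fell as well. In positive cells 5 fell to 3 without positive ileal replicate 2 or positive colonic replicate 3, with *Gata4* and *Gata6* lost (adjusted p from 0.11 to 0.26). The *Gata4* difference there (1.04, adjusted p = 0.046) was lost without any of 14 of the 24 libraries, without the filter on low counts and with the compared libraries alone (adjusted p from 0.050 to 0.18). In negative cells 4 fell to 2 without negative colonic replicate 1 or 3 or negative ileal replicate 1, with *Gata4* and *Hnf4a* lost, and without negative colonic replicate 2, with *Hnf4a* and *Hnf4g* lost (adjusted p from 0.063 to 0.14). *Hnf4a* (0.99, adjusted p = 0.035) was also lost in 5 of the other alternatives (adjusted p from 0.066 to 0.20) and without negative ileal replicate 2, positive colonic replicate 2, negative jejunal replicate 1 or positive jejunal replicate 2 (0.067 to 0.17). Between negative duodenum and ileum *Hnf4g* (1.29, adjusted p = 0.026) was lost with library size alone and without negative ileal replicate 1 or 2 or negative duodenal replicate 2 or 3 (0.069 to 0.23). Leaving out 1 library also ended the calls of *Gata5* between positive duodenum and ileum (0.098, positive ileal replicate 2), *Cdx1* between positive duodenum and jejunum (0.076, positive jejunal replicate 1) and *Cdx1* between negative jejunum and colon (0.091, negative jejunal replicate 2).

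Genes known as targets of these factors were followed as lists chosen by name. All 16 HNF4 targets were higher in positive cells of both jejunum and ileum, with medians of 3.13 and 3.73 on the log2 scale, and 6 and 8 of them in duodenum and colon, where the shares of all genes called higher were 18.3%, 17.9%, 8.88% and 9.31%. *Apob*, the main protein of chylomicrons, rose by 3.61 in the jejunum (adjusted p = 2e-07), with a mean of 5971 CPM in positive and 490.4 CPM in negative cells. *Vil1*, which bundles actin in microvilli, rose by 2.87 in the jejunum and 3.13 in the ileum. *Cdhr2* and *Cdhr5*, which link microvilli to each other, rose by 3.34 and 2.82 in the jejunum. Summed enterocyte markers were higher in positive cells of jejunum, ileum and colon without overlap, and this was not separated from the level of any factor.

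Of 10 CDX targets, 6, 8, 9 and 8 were called from duodenum to colon, all higher in positive cells, as 8.88%, 18.3%, 17.9% and 9.31% of all genes were. Between sorts *Cdx2* was called nowhere and *Cdx1* in the duodenum alone. *Muc2*, the goblet cell mucin, rose by 7.96 in the duodenum (adjusted p = 1.7e-11). *Krt20*, a keratin of mature epithelium, rose by 2.32 in the duodenum and 3.02 in the colon. *Sis*, the brush-border sucrase-isomaltase, rose by 3.41 in the ileum, and its mean was 1977 CPM in positive ileal against 17.4 CPM in positive colonic cells. *Muc2* is also among the goblet cell markers and *Sis* among the enterocyte markers summed above. The cell types of the sorts were not separated from the level of any factor here.

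The GATA4 list joins proximal genes that need GATA4 or GATA6 with bile acid genes of the ileum that are known to rise without them. It overlaps the regional marker lists used above: *Fabp1*, *Lct* and *Apoa4* are also proximal markers and *Slc10a2* is an ileum marker. A split of this list between jejunum and ileum therefore follows in part from how it was chosen, and the part of GATA4 in it was not tested. In positive cells 6 of 11 were higher in the jejunum and 3 lower, beside 5.15% of all genes called in either direction. *Fabp1*, a fatty acid binding protein, was higher there by 7.45 (adjusted p = 6.4e-12), *Lct*, encoding lactase, by 7.47 and *Apoa4*, an apolipoprotein, by 7.51. *Slc10a2*, the ileal bile acid transporter, went the other way by -8.20 (adjusted p = 4.8e-10), with means of 2.27 CPM in jejunum and 675 CPM in ileum. Negative cells had 6 higher and 2 lower (2.11% of all genes in either direction), with *Fabp1* at 5.76 and *Slc10a2* at -6.30.

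Short promoter stretches are shown because they hold the letters that GATA and CDX proteins are known to bind, in genes whose levels are given above or below. In positive cells *Hnf4a* was not called between jejunum and ileum, and *Sis* fell from ileum to colon. Any part of the factors in the levels of these genes was not tested. The RefSeq promoter table (GRCm38.p6) had an entry for 4 of the 9 genes (*Gata5*, *Pdx1*, *Cdx2* and *Hnf4a*). Both strands of the 250 bases before each start were searched for the GATA word AGATAA, the CDX word CATAAA and the HNF4 word CAAAGTCCA, capitals marking the match or its reverse complement. A match is a description of the sequence, not a binding site.
*Lct*, GATA, chr1:128328394-128328417, minus strand, 90 bases before the start: atctgtcctAGATAAcccagttaa
*Lct*, GATA on the other strand, chr1:128328405-128328428, 101 bases before the start: agttctgatTTATCTgtcctagat
*Lct*, CDX, chr1:128328335-128328358, 31 bases before the start: ggctgtgctCATAAAgtcaggatt
*Sis*, CDX on the other strand, chr3:72967892-72967915, minus strand, 43 bases before the start: caataaaacTTTATGagtagtcaa
*Hnf4a*, GATA, chr2:163506796-163506819, plus strand, 52 bases before the start: gaatcaataAGATAAccgggcggg
*Lct* thus held both kinds of match within 101 bases, and of the 4 factors with an entry *Hnf4a* had the GATA match. The start of *Hnf4a* in the RefSeq table lies downstream of the first base of its gene model given above, which falls within the window shown.

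Matches in the lists were set beside those in all promoters. AGATAA was found in 9.99% of the 32851 promoters and in 1 of the 10 GATA4 targets with an entry, *Lct*. CATAAA was found in 10.8% of promoters and in 2 of 7 CDX targets, *Sis* and *Lct*. CAAAGTCCA was found in 0.384% of promoters and in 0 of 15 HNF4 targets. Like *Gata4*, *Lct* fell between jejunum and ileum, with means in positive cells of 112, 1590, 8.93 and 1.60 CPM from duodenum to colon.

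Of 31 further transcription factors of gut regions and enterocytes, or paralogs and cofactors of the 9 genes, 20 were tested. From duodenum to colon, sort differences were called for 5 (4 higher in positive cells), 9 (6 higher), 6 (5 higher) and 7 (6 higher), beside 17%, 43.9%, 38.5% and 13.1% of all genes. *Klf4*, a factor of goblet and differentiated cells, was higher in positive cells of all 4 regions, by 3.11, 3.33, 3.45 and 2.01. *Maf*, a regulator of mature enterocytes, rose by 2.76, 3.74 and 3.29 from jejunum to colon. *Creb3l3*, which drives lipid genes, rose by 3.49 in the jejunum and 4.79 in the ileum. *Nr5a2*, a nuclear receptor of crypt cells, fell by 1.67, 2.51 and 1.05 from duodenum to ileum.

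Some of these factors had a regional profile beside those of the 9 genes. *Zfpm1*, which encodes the GATA cofactor FOG1, had its step, like *Gata4*, between jejunum and ileum, with means in positive cells of 49.3, 48.7, 4.91 and 2.78 CPM from duodenum to colon, and jejunum exceeded ileum by 3.30 (adjusted p = 1.6e-06). *Nr1h4*, the bile acid receptor FXR, was highest in the ileum among positive cells, with means of 10.0, 15.8, 79.1 and 39.2 CPM.

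The genes most alike each factor were listed by Pearson's r of log2 CPM over the 24 libraries, which share regions and sorts, so that r is a description without a test. *Fabp1* (r = 0.955), *Adh6a* (0.945) and *Cyp2b10* (0.935) were most like *Gata4*. *Tmprss15* (0.934), encoding the duodenal enteropeptidase that makes trypsin from its precursor, was most like *Pdx1*. *Cndp1* (0.963), *Myrfl* and *Fam20a* were nearest to *Gata5*. *Misp* (0.971), *Actn4* (0.969) and *Myo5b* (0.964), genes of the actin cytoskeleton and apical traffic, were nearest to *Hnf4a*. The sequence *2010106E10Rik* (0.974), the inositol transporter *Slc5a11* (0.964) and *Acsl5* (0.959), which activates fatty acids, were nearest to *Hnf4g*. *Onecut2* was closest to *Adh6a* (0.908) and *Adh4* (0.903), and then to *Gata4* itself (0.893). Values were lower for *Cdx1*, led by *Gas6* (0.863), for *Cdx2*, led by *Zfp773* (0.821), and for *Gata6*, led by *Lrp5* (0.770).

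**Figure D5:**
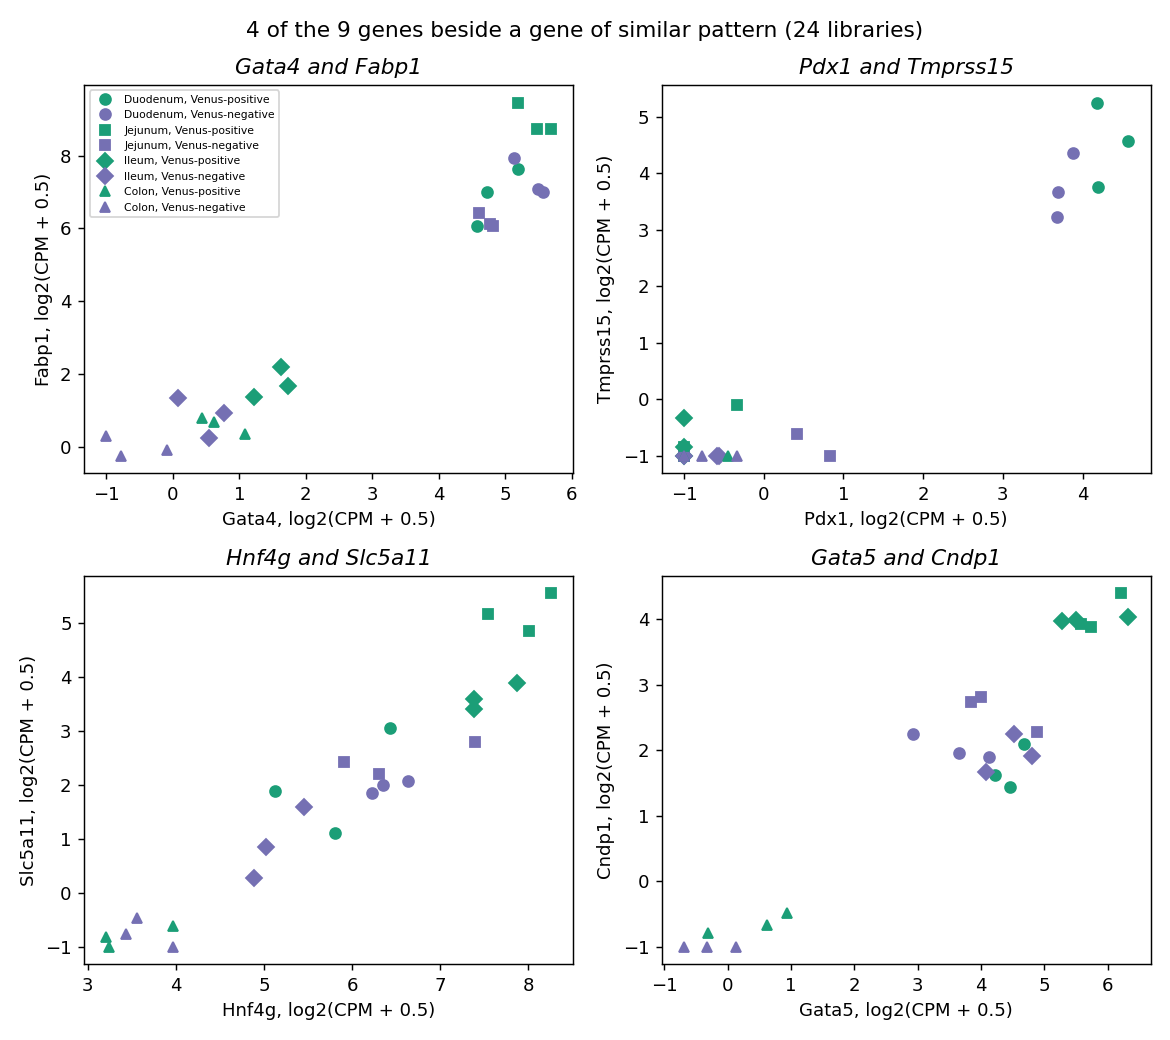
Levels of *Gata4*, *Pdx1*, *Hnf4g* and *Gata5* (horizontal axes) against a gene of similar pattern (vertical axes), both as log2(CPM + 0.5), in 24 libraries (shape, region; green, Venus-positive; purple, Venus-negative). Libraries of the duodenum and jejunum stood apart from those of ileum and colon for *Gata4* and *Fabp1*, and duodenal libraries from all others for *Pdx1* and *Tmprss15*.

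*Tmprss15* had means of 24.7 CPM in positive and 13.7 CPM in negative duodenal cells and at most 0.164 CPM in the other 6 groups, and *Pdx1* at most 0.707 CPM there. Summed markers of the pancreas, where *Pdx1* is also expressed, were at 2.39 to 6.65 CPM in duodenal libraries, and at 19.6 to 86.0 CPM in colonic libraries, where *Pdx1* was near 0. In both regions 1 of the 9 markers, *Cela1*, gave the whole sum, and the other 8, the insulin genes among them, had no counts. Those of stomach and Brunner's glands were at most 15.9 CPM in the duodenum, and their part in the level of *Pdx1* was not tested. *Fabp1* reached 518 CPM in positive jejunal cells and was at 2.93 CPM in the ileum, a step in the direction of that of *Gata4*.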

How the data were processed

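RNA from sorted cells (10 ng per library) was made into stranded total RNA libraries and sequenced as single-end 50-base reads. The authors aligned reads to GRCm38 with STAR (version 2.5.1 per the submitters' processing notes) and deposited raw counts per gene, unnormalised. The strand setting and annotation were not given in the sources used here. Summary lines for reads outside unique genes (39.4% to 75.8% of reads) were left out of library sizes and tests.

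Positions and exon lengths came from GENCODE M21 (53274 of 53465 genes). The genes were filtered with filterByExpr (minimum count 10, total 15), leaving 15044, and normalised by TMM. One edgeR 4.0.16 quasi-likelihood fit with limma 3.58.1 in R 4.3.3 covered all 8 groups, with Benjamini-Hochberg adjustment over all genes tested and a threshold of 0.05. Differences are log2 fold changes with the standard error from the F statistic. Levels are CPM on TMM-scaled library sizes. Paralog ratios were tested by exact permutation within regions. Scripts were tested on simulated data. Alternatives were DESeq2 1.42.0, RLE factors, library size alone, other filters, protein-coding nuclear genes only, the i5 index as covariate, compared libraries alone and each library left out. Adjusted p values weigh a difference against the spread between libraries within groups. That spread was estimated for each gene over all 8 groups in the same fit and moderated across genes, not from the 3 libraries of a group alone.

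The 9 genes and all lists were chosen by name with earlier results of these data known. Named besides them were at most 6 other factors per comparison, at most 4 targets per list and comparison by smallest adjusted p, and the 3 genes most alike each factor.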

Additional observations from a re-analysis of the deposited data

Results flagged for a closer look

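The difference between Venus-positive and Venus-negative cells was itself different between regions for 4 of the 9 genes. This counts a call in any of edgeR's 6 interaction contrasts (adjusted p under 0.05). Taken singly, the 6 contrasts called 0.266% to 14.6% of all genes, and the share called in any of them was not counted. The joint test of the interaction called 3 of the 9 genes, beside 17.5% of all genes. For *Gata4* the sort difference in the duodenum was below that in the jejunum by -1.31 ± 0.44 (adjusted p = 0.045), below that in the ileum by -1.96 ± 0.48 (0.0075) and below that in the colon by -3.05 ± 0.63 (0.0034). The last value rests on 0, 6 and 1 counts in negative colonic libraries and was -4.80 without replicate 2 of these. For *Hnf4g* the duodenum was below the jejunum by -1.82 ± 0.49 (0.011) and below the ileum by -2.98 ± 0.49 (0.00021), and the ileum was above the colon by 2.60 ± 0.50 (0.004). *Cdx1* went the other way, the duodenum being above the jejunum by 1.14 ± 0.37 (0.037) and above the ileum by 1.43 ± 0.37 (0.011). For *Gata6* the jejunum was above the colon by 1.44 ± 0.43 (0.03).

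The *Gata4* and *Cdx1* differences between duodenum and jejunum were the least firm: they lost their call without 12 and 7 of the 24 libraries in turn (adjusted p up to 0.12 and 0.14), and *Gata6* without 4 (up to 0.10). With library size alone, *Gata4* and *Hnf4g* between duodenum and jejunum, and *Gata4* between duodenum and ileum, did not pass (adjusted p = 0.12, 0.058 and 0.087), nor did *Cdx1* between duodenum and jejunum (0.054), which was also lost with RLE factors (0.051). Without the filter on low counts *Cdx1* and *Gata4* between duodenum and jejunum did not pass (0.15 and 0.072). In the positive duodenum, summed goblet and Paneth cell markers were at 53013 to 60457 and 22151 to 52958 CPM, and in the positive jejunum at 1907 to 4907 and 1541 to 16118 CPM. Their part in these differences was not tested.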

How the results depend on the processing

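Of 136 results for single genes compared, 99 were called. No called result changed sign under any alternative or left-out library, and 72 stayed past the threshold in all that gave a value for them. Requiring at least 10 counts in every library gave values for 69 of the 136, and the compared libraries alone for 112. Leaving out a library ended 22 calls, and the other alternatives 16.

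No paired analysis was run, because the labels do not name the mouse and the replicate numbers used here only follow the order of the samples. Libraries of the same mouse in several groups were therefore treated as independent.

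The number of genes called between sorts in the duodenum (1) was 3 with library size alone, 0 without a filter and 2 with the compared libraries alone. With at least 10 counts in every library, where *Gata4*, *Gata5*, *Pdx1* and *Onecut2* were not tested, the jejunum had 3, the ileum 3 (with *Cdx1* added), the colon 1, and the joint tests 5 in positive and 2 in negative cells. With the compared libraries alone the colon had 1. Leaving out 1 library gave 0 to 1 in the duodenum, 3 to 6 in the jejunum, 3 to 4 in the ileum, 2 in the colon, 9 and 6 to 7 in the joint tests of positive and negative cells, and 2 to 4 in the interaction test. The *Gata4* to *Gata6* ratio ranged from 0.67 to 1.05 (exact permutation p = 0.0498 without negative duodenal replicate 2), *Cdx1* to *Cdx2* from -0.30 to -0.16 and *Hnf4g* to *Hnf4a* from -0.48 to -0.28.

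The *Gata4* to *Gata6* ratio was 0.0074 and the *Hnf4g* to *Hnf4a* ratio -0.026 with the colon left out. *Gata4* in the jejunum passed with DESeq2 (0.87), RLE factors (0.87), library size alone (1.09), protein-coding nuclear genes (0.80), the i5 index (0.74) and the compared libraries alone (0.78). Sign changed for uncalled differences only: *Cdx2* in the duodenum (0.24, library size alone), *Gata6* in the ileum (-0.047, at least 10 counts) and *Gata5* between positive jejunum and ileum (-0.15, library size alone). With a library left out, the values were -0.10 to 0.41 for *Cdx2* and -0.0092 to 1.29 for *Onecut2* in the jejunum, -0.29 to 0.39 for *Gata6* and -0.46 to 0.25 for *Onecut2* in the ileum, and -4.20 to 0.42 for *Pdx1*, -0.15 to 0.038 for *Cdx1* and -0.45 to 0.030 for *Hnf4g* in the colon. Between positive jejunum and ileum they were -0.11 to 0.47 for *Gata5* and -0.42 to 0.051 for *Hnf4a*. The cause was not tested. Library size alone moved the median of all genes in the duodenum from -0.16 to 0.27. Depth limits *Pdx1* outside the duodenum, *Onecut2* and *Gata4* in ileum and colon, and *Gata5* in the colon, where libraries held few counts.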
